A study of Mus musculus with 20 samples.

Results

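The EGF receptor family and its ligands were described here across normal skin (NS), actinic keratoses (AK), the precancerous lesion, and cutaneous squamous cell carcinoma (cSCC) of the mouse. Members were chosen by gene symbol and were 10 of the 22090 genes in the count table: the receptors Egfr, Erbb2 and Erbb3, the ligands Areg, Ereg, Hbegf, Tgfa, Btc and Epgn, and the receptor inhibitor Errfi1. RNA-seq covered 20 tissues, 8 NS, 8 AK and 4 cSCC, from 8 female hairless SKH-1 mice, of which 4 were irradiated with ultraviolet light and 4 were not. The mice were 7 months old when they were divided, and tissues were taken after an irradiation course that lasted further months. Every animal was of this hairless strain, and no transgene or deletion was described. The unirradiated mice gave 1 NS each, and each irradiated mouse gave 1 NS and its AK and cSCC lesions. The labels give neither the mouse of a tissue nor the grade of an AK, so tissues of 1 mouse were tested as independent samples and NS of both kinds formed 1 group. Samples keep the numbers of their labels (NS 1 to 9 without 3, AK 10 to 17, cSCC 18 to 21).

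The family works as a relay at the cell surface. Ligands are made as membrane-bound precursors and are cut free by proteases, bind EGFR (some of them also ERBB4), and bring receptors together in pairs whose kinase domains start the Ras-MAPK cascade. ERBB2 has no known ligand of its own and serves as a partner, while ERBB3 binds neuregulins and has a weak kinase. In skin, EGFR is known for keeping basal keratinocytes dividing, and its ligands are known as keratinocyte growth factors in wound healing and hair follicle growth. ERRFI1 (also called MIG6) binds the EGFR kinase and blocks it as part of a feedback loop.

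Levels are given in CPM, read counts scaled to the same library total with edgeR's TMM scaling over the 20 samples. Total counts ranged from 1624325 to 6295575 in NS, from 867219 to 14055206 in AK and from 775750 to 7095102 in cSCC, so that 3 counts, taken as the smallest detectable level, stood for 0.225 to 3.78 CPM. The TMM factor was 0.509 for cSCC 18 and 0.852 to 1.22 for the other 19 samples. This low factor raises every CPM of cSCC 18 above its counts per library total. The libraries of the cSCC group stood apart from each other. Heart muscle markers (Myh6, Tnnt2, Tnni3, Pln, Nppa) summed to 39283 CPM in cSCC 21 and to 6.60 to 100.1 CPM in the other 19 samples. Lung epithelium markers (Sftpc, Sftpb, Sftpa1, Scgb1a1, Ager) summed to 35513 CPM in cSCC 20 and to at most 51.7 CPM elsewhere. Keratinocyte markers (Krt5, Krt14, Krt1, Krt10, Trp63) summed to 5105 CPM in cSCC 20 and 3720 CPM in cSCC 21, below the 6345 to 18936 CPM of NS, and to 17919 and 17045 CPM in cSCC 18 and 19. The log2 fold change of each member, and of each pathway gene called in a cSCC comparison, is therefore also given without cSCC 20 and 21. Group means, shares and medians were taken over all cSCC samples. The part of these other tissues in the results was not tested. Sums of the fibroblast markers were 1265 to 5448 CPM in cSCC and 1021 to 7692 CPM in NS. Those of the leukocyte markers were 561 to 5847 and 1240 to 4579 CPM, and those of the adipocyte markers 145 to 1170 and 98.0 to 1007 CPM. Endothelial markers summed to 39.6, 73.8, 141 and 422 CPM in cSCC 18 to 21 and to 20.8 to 70.0 CPM in NS. Skeletal muscle markers summed to 898, 500, 786 and 8322 CPM in cSCC 18 to 21 and to 522 to 7437 CPM in NS. The highest cSCC sums of both were thus in cSCC 21, which held the heart muscle markers.

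In cSCC, all 3 receptors and the ligand Btc were lower than in NS, and the ligands Areg and Hbegf were higher. The same 6 members passed in cSCC vs. AK, while in AK vs. NS Erbb2 alone passed and was lower. Genes passed when edgeR's quasi-likelihood test gave them an adjusted p-value (Benjamini-Hochberg, over all genes tested) of less than 0.05 and they differed by more than 1.5-fold in either direction. All 10 members were kept by the filter on low counts in each comparison. In AK vs. NS, 1 of 10 members passed, against 4.64% of 11677 genes (2.26% higher and 2.38% lower). In cSCC vs. NS, 6 of 10 members passed, against 19.3% of 12097 genes (11.7% higher and 7.65% lower). In cSCC vs. AK, 6 of 10 members passed, against 24.4% of 12032 genes (16% higher and 8.34% lower). Without cSCC 20 and 21, 3 members were higher and 3 lower against NS, and 3 were higher and 2 lower against AK. Of all genes tested in these fits, 733 of 12762 were higher and 825 lower against NS. Against AK, 843 of 12567 were higher and 741 lower. Epgn then passed as higher in both comparisons. Egfr passed in neither, and Erbb2 did not pass against AK. The last 2 comparisons share the cSCC samples, and the first 2 share NS. The split of all genes called moved with the scaling: without TMM factors it was 176 higher and 481 lower in place of 264 and 278 in AK vs. NS, 625 higher and 1332 lower in place of 1414 and 926 in cSCC vs. NS, and 1021 higher and 1356 lower in place of 1931 and 1004 in cSCC vs. AK. That scaling moved the median log2 fold change of all genes by -0.31 in cSCC vs. NS and by -0.27 in cSCC vs. AK, and left the direction of the 6 members unchanged.

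**Figure D1:**
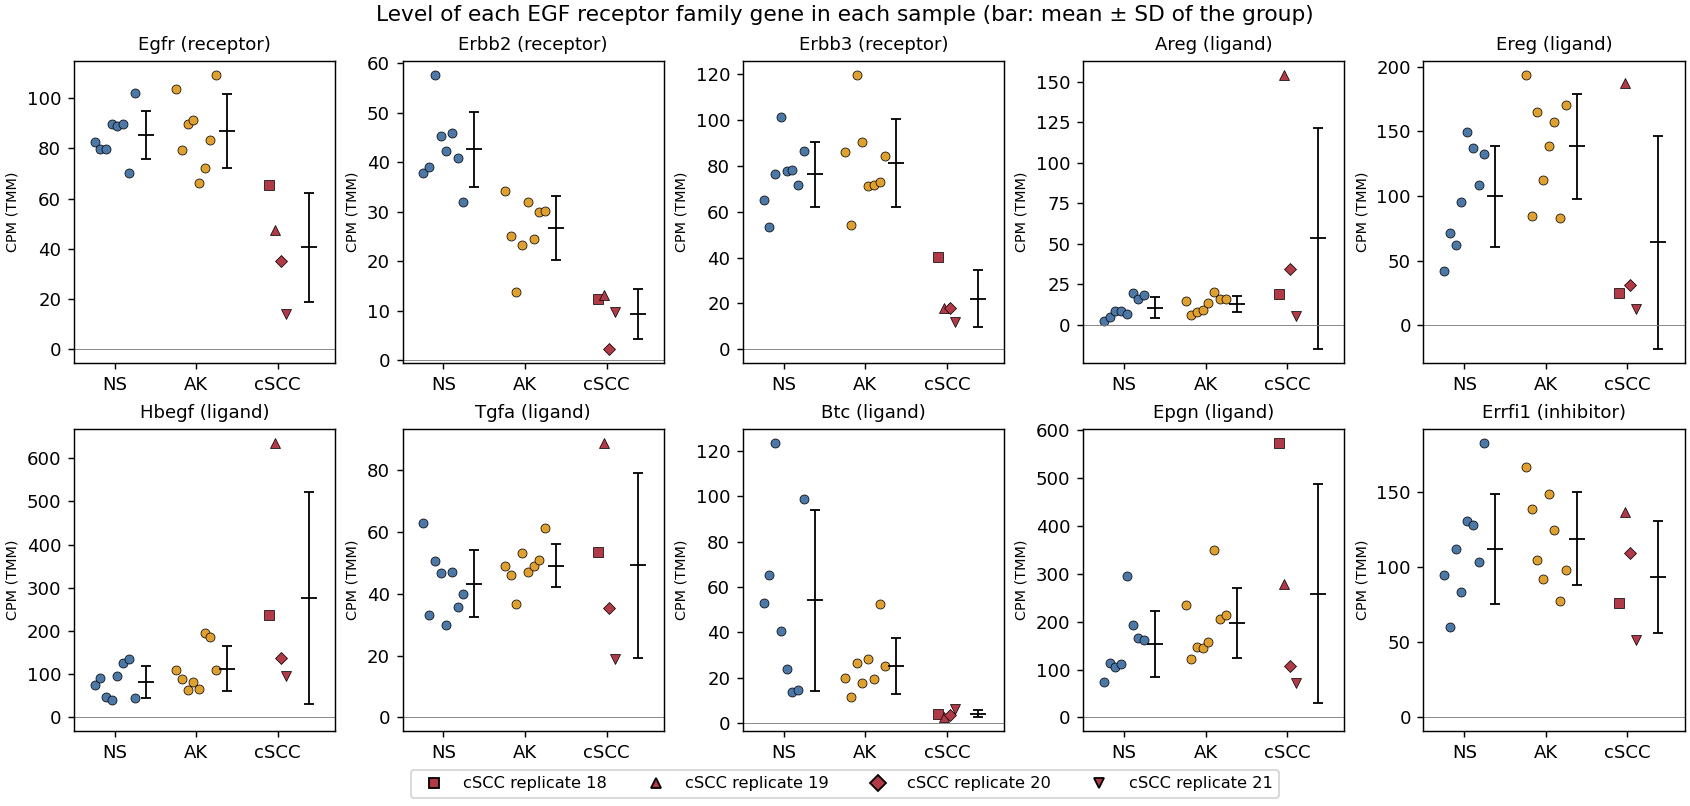
CPM (TMM-scaled) of the 10 genes on the y axis, 1 panel each, by group on the x axis. Points are samples, the cSCC samples have a marker each, and bars show mean ± SD (NS n = 8, AK n = 8, cSCC n = 4). All 4 cSCC samples lie below every NS and AK sample for Egfr, Erbb2, Erbb3 and Btc. The highest cSCC sample is cSCC 19 for Areg, Ereg, Hbegf, Tgfa, Errfi1 and Erbb2.

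Members differed widely in level within a group. Levels per kb of exon set genes side by side only roughly. The length used is the union of a gene's annotated exons, not that of the transcript expressed. On this scale Epgn was the highest member in each group. Its mean ± SD was 84.5 ± 38.3 CPM per kb in the 8 NS, 109 ± 40.6 in the 8 AK and 143 ± 127 in the 4 cSCC samples. In NS, the mean CPM per kb then fell from Errfi1 (31.2) over Ereg (24.2), Hbegf (16.9), Erbb3 (12.7), Btc (11.97), Areg (8.56), Erbb2 (8.18) and Egfr (7.53) to Tgfa (6.66). The ranges of neighbours in this order overlapped throughout, but within libraries Epgn exceeded Errfi1 in 8 of 8 samples and Errfi1 exceeded Ereg in 7 of 8. The other pairs of neighbours kept their order in 3 to 6 of 8 samples. AK kept Epgn apart from its neighbour, with at least 67.8 CPM per kb against at most 47.0 for Ereg. In cSCC the order of mean CPM per kb was Epgn, Hbegf (57.2), Areg (43.7), Errfi1 (26.0), Ereg (15.5), Tgfa (7.57), Erbb3 (3.67), Egfr (3.58), Erbb2 (1.81) and Btc (0.913), again with overlapping ranges between neighbours. Within libraries, Epgn over Hbegf, Hbegf over Areg and Tgfa over Erbb3 held in 4 of 4 cSCC samples, and the other pairs in 1 to 3 of 4.

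The receptors fell together in cSCC. Egfr, the receptor of all 6 ligands measured here, had 70.3 to 102 CPM in NS (median 85.8) and 66.3 to 109 CPM in AK (median 86.4). The cSCC samples had 65.3, 47.5, 35.3 and 14.1 CPM (cSCC 18 to 21), all below the lowest NS and AK sample, with the smallest gap between cSCC 18 and AK 14. The log2 fold change was -1.04 ± 0.32 (SE) in cSCC vs. NS (2.05-fold lower, adjusted p = 0.036) and -1.02 ± 0.31 in cSCC vs. AK (adjusted p = 0.0296). Egfr was the least firm of the receptor calls. Its log2 fold change without cSCC 20 and 21 shrank to -0.58 against NS (adjusted p = 0.132) and -0.56 against AK (adjusted p = 0.146). It also missed the threshold against NS when any 1 of NS 1, 4, 5, 6, 7 and 9 or cSCC 19 and 20 was left out (adjusted p = 0.053 to 0.0713), and against AK without AK 10, AK 17 or cSCC 20 (0.0501 to 0.06) or with limma voom (0.0817). In AK vs. NS the log2 fold change of Egfr was 0.01 ± 0.12 (adjusted p = 0.976).

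Erbb2, the partner receptor, was the member that passed as lower both in AK vs. NS and in cSCC vs. AK. Btc also had a lower median at each step (46.8, 22.7 and 3.79 CPM), but did not pass in AK vs. NS (adjusted p = 0.103). Erbb2 had 31.9 to 57.7 CPM in NS (median 41.5) and 13.9 to 34.3 CPM in AK (median 27.6), and 6 of 8 AK samples lay below the lowest NS sample. AK vs. NS gave a log2 fold change of -0.67 ± 0.17 (1.60-fold lower, adjusted p = 0.0291). This call was lost when NS 4, NS 5, AK 13 or AK 15 was left out (adjusted p = 0.0536 to 0.0711) and when all 20 samples entered 1 fit (0.169), with the log2 fold change between -0.67 and -0.60 each time. Values in cSCC were 12.5, 13.2, 2.28 and 9.76 CPM (cSCC 18 to 21). The value of cSCC 20 rested on 2 counts, under the 3 counts that stand for 3.41 CPM in that library. All 4 samples were below every NS and AK sample. Erbb2 fell by 2.08 ± 0.35 on the log2 scale against NS (4.21-fold lower, adjusted p = 0.00253) and by 1.34 ± 0.38 against AK (2.53-fold lower, adjusted p = 0.0209). Without cSCC 20 and 21 the log2 fold change was -1.70 against NS (adjusted p = 0.00629) and -0.996 against AK (adjusted p = 0.0778), and limma voom gave an adjusted p of 0.1 against AK. Erbb2 lies on chromosome 11 (98412470 to 98437716, plus strand, GRCm38) and overlaps Mien1 on the opposite strand. Counting by strand is not given in the sources used here, so reads in the overlap could have been given to either gene.

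Erbb3, the neuregulin receptor, did not pass in AK and was lower in cSCC under each alternative run. NS had 53.3 to 101 CPM (median 77.0) and AK 54.2 to 120 CPM (median 78.8), with a log2 fold change of 0.07 ± 0.16 (adjusted p = 0.819). The cSCC samples had 40.3, 18.02, 18.2 and 11.9 CPM (cSCC 18 to 21). None of them reached the lowest NS or AK sample. Erbb3 fell by 1.75 ± 0.32 on the log2 scale in cSCC vs. NS (3.37-fold lower, adjusted p = 0.00343) and by 1.79 ± 0.32 in cSCC vs. AK (3.47-fold lower, adjusted p = 0.00282). Erbb3 still passed without cSCC 20 and 21, with a log2 fold change of -1.38 against NS (adjusted p = 0.0233) and -1.43 against AK (adjusted p = 0.0172).

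Since all 3 receptors are made by keratinocytes, their levels were set beside keratinocyte markers. In bulk tissue, fewer cells of a type and less RNA per cell cannot be told apart. Krt14, a keratin of basal keratinocytes, had 14100 and 13516 CPM in cSCC 18 and 19, above the 3660 to 13137 CPM of NS, and 4115 and 2917 CPM in cSCC 20 and 21. These values are TMM-scaled, and those of cSCC 18 were raised by its TMM factor of 0.509. Krt10, a keratin of the differentiated layers, had 321, 9.23, 44.4 and 11.6 CPM in cSCC 18 to 21, below the 899 to 2486 CPM of NS. The other markers of the list did not move as one. Krt5, the partner of Krt14, had 2160, 3141, 651 and 730 CPM in cSCC 18 to 21 against 624 to 2190 CPM in NS. Trp63, the transcription factor of basal keratinocytes, had 518, 337, 175 and 47.96 CPM against 230 to 550 CPM. Krt1, the partner of Krt10, had 820, 41.3, 119 and 13.2 CPM against 933 to 5492 CPM. Krt1 and Krt10 were thus below every NS sample in all 4 cSCC samples, and Krt14, Krt5 and Trp63 were within or above the NS range in cSCC 18 and 19. The part of keratinocyte content in the receptor results was not tested.

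**Figure D2:**
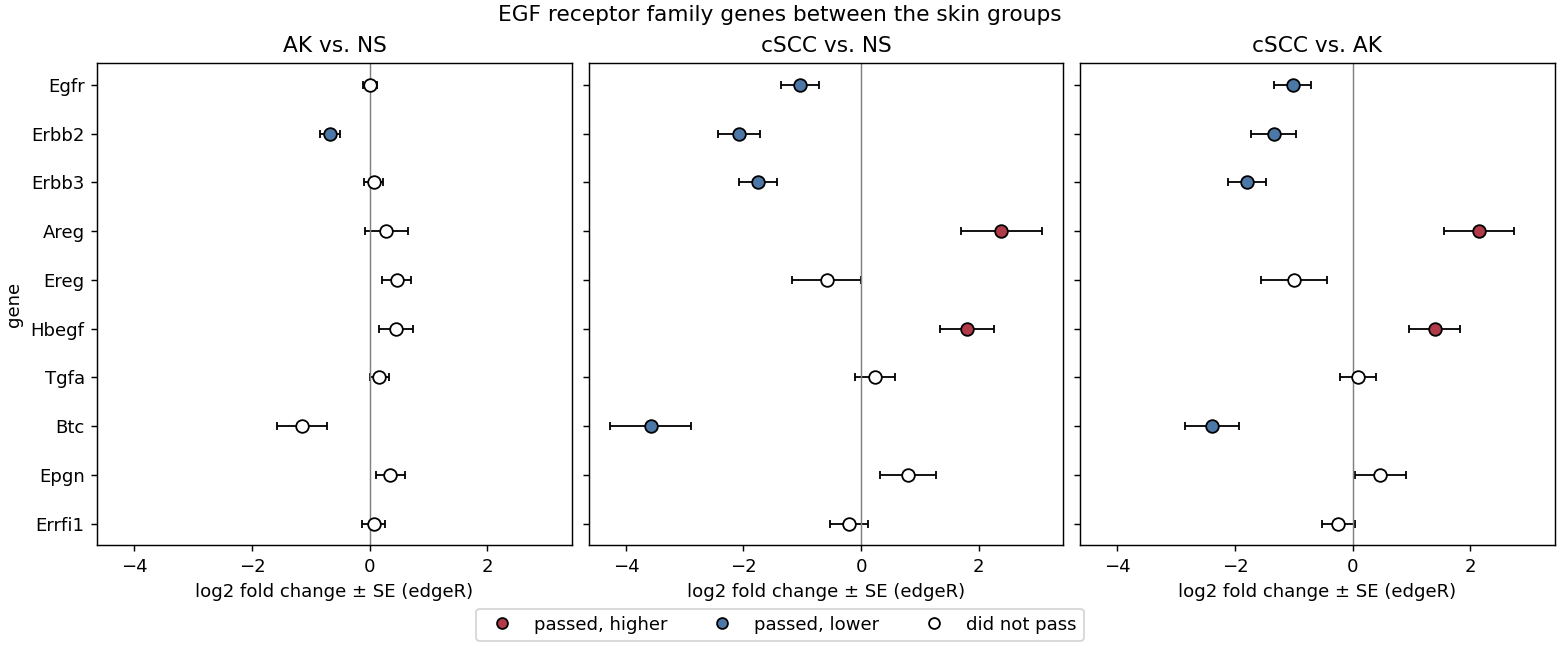
Log2 fold change (x axis, ± SE, edgeR) of each member (y axis) for AK against NS, cSCC against NS and cSCC against AK. Filled points passed the threshold. Erbb2 is the member filled in AK vs. NS, and the same 6 members are filled in both cSCC comparisons.

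Areg and Hbegf were the ligands that were higher in cSCC, and cSCC 19 held the top value of each. Areg encodes amphiregulin, a ligand made by keratinocytes and known from psoriatic skin. It had 2.29 to 19.3 CPM in NS (median 8.29) and 5.85 to 20.3 CPM in AK (median 14.01). In cSCC it had 18.8, 154, 34.1 and 5.46 CPM (cSCC 18 to 21), so that 2 of 4 samples lay above every NS sample and cSCC 21 lay within the NS range. The log2 fold change was 2.39 ± 0.68 against NS (5.23-fold higher, adjusted p = 0.0259) and 2.15 ± 0.60 against AK (4.43-fold higher, adjusted p = 0.0189). Without cSCC 19 it was 0.90 against NS (adjusted p = 0.362) and 0.64 against AK (adjusted p = 0.381). With cSCC 20 and 21 left out it was 3.08 (adjusted p = 0.0112) and 2.84 (adjusted p = 0.0041). The rise of Areg thus rested on cSCC 19, and AK vs. NS gave 0.29 ± 0.37 (adjusted p = 0.671).

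Hbegf encodes heparin-binding EGF-like growth factor, known for driving keratinocyte migration in wounds. Its level was 41.2 to 134 CPM in NS (median 82.9) and 63.1 to 196 CPM in AK (median 99.1). The cSCC samples had 236, 635, 138 and 96.8 CPM (cSCC 18 to 21), and 3 of 4 lay above every NS sample, by little for cSCC 20. The value of cSCC 18 was raised by its TMM factor of 0.509. Against NS the log2 fold change was 1.80 ± 0.45 (3.49-fold higher, adjusted p = 0.015), and against AK it was 1.39 ± 0.44 (2.63-fold higher, adjusted p = 0.0316). Leaving out cSCC 19 gave 0.99 against NS (adjusted p = 0.106) and 0.57 against AK (adjusted p = 0.286), whereas leaving out cSCC 20 and 21 gave 2.45 (adjusted p = 0.00538) and 2.03 (adjusted p = 0.00703). The call against AK was also lost without AK 10, 11, 12, 13, 14 or 17 (adjusted p = 0.0514 to 0.0779), without TMM factors (0.0872), with a looser filter on low counts (0.0613) and with limma voom (0.0714). AK vs. NS gave 0.45 ± 0.29 (adjusted p = 0.342).

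Btc, betacellulin, moved the other way and had the largest fold change among the members. NS ranged widely, from 13.6 to 123 CPM (median 46.8), and AK from 11.5 to 52.7 CPM (median 22.7). The cSCC samples had 4.17, 2.64, 3.41 and 6.28 CPM (cSCC 18 to 21), from 6, 6, 3 and 38 counts, and were all below the lowest NS and AK sample. Btc fell by 3.58 ± 0.69 on the log2 scale in cSCC vs. NS (11.9-fold lower, adjusted p = 0.00443) and by 2.39 ± 0.47 in cSCC vs. AK (5.25-fold lower, adjusted p = 0.00398). With cSCC 20 and 21 left out it still passed, at -3.99 (adjusted p = 0.0262) and -2.83 (adjusted p = 0.0115). Limma voom with sample weights gave -3.44 (adjusted p = 0.235) and -2.31 (adjusted p = 0.137). In AK vs. NS the log2 fold change was -1.15 ± 0.42 (adjusted p = 0.103), and it passed without NS 8 (adjusted p = 0.0499).

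Egfr, Erbb2, Erbb3 and Btc were the 4 members whose cSCC samples did not overlap with NS, where 8.43% of genes tested had groups without overlap, and they were also the 4 without overlap with AK, where 10.2% did. No member separated AK from NS without overlap, as 0.522% of genes did.

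The ligands Ereg, Epgn and Tgfa and the inhibitor Errfi1 passed in no comparison. Ereg, epiregulin, had 42.1 to 149 CPM in NS (median 102) and 83.3 to 194 CPM in AK (median 148). In cSCC it had 25.01, 188, 30.7 and 12.7 CPM (cSCC 18 to 21), so that 3 of 4 samples lay below every NS sample and cSCC 19 lay above. Its log2 fold change was -0.59 ± 0.59 against NS (adjusted p = 0.514) and -0.997 ± 0.560 against AK (adjusted p = 0.204). Without cSCC 19 it was -2.10 (adjusted p = 0.0109) and -2.53 (adjusted p = 0.00361), and without cSCC 20 and 21 it was 0.14 (adjusted p = 0.9) and -0.27 (adjusted p = 0.774). In AK vs. NS it was 0.46 ± 0.24 (adjusted p = 0.247).

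Epgn, epigen, a ligand of low receptor affinity, had 74.5 to 295 CPM in NS (median 138), 122 to 350 CPM in AK (median 181), and 574, 279, 107 and 72.8 CPM in cSCC 18 to 21. With TMM scaling the cSCC samples thus spread beyond both ends of the NS range. The upper end was cSCC 18, whose values were raised by its TMM factor of 0.509. The log2 fold change of Epgn was 0.79 ± 0.47 in cSCC vs. NS (adjusted p = 0.253), 0.47 ± 0.43 in cSCC vs. AK (adjusted p = 0.45) and 0.36 ± 0.25 in AK vs. NS (adjusted p = 0.401). Without TMM factors it was 0.29 in cSCC vs. NS (adjusted p = 0.673). Without cSCC 20 and 21 it passed, at 1.504 against NS (adjusted p = 0.0321) and 1.17 against AK (adjusted p = 0.0356).

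Tgfa, transforming growth factor alpha, the classic autocrine ligand of keratinocytes, had 29.9 to 63.0 CPM in NS, 36.6 to 61.3 CPM in AK, and 53.5, 88.8, 35.3 and 19.02 CPM in cSCC 18 to 21. Its mean was 43.2 ± 10.9 CPM in NS (SD, n = 8) and 49.1 ± 29.9 CPM in cSCC (SD, n = 4), with a log2 fold change of 0.23 ± 0.34 (adjusted p = 0.674). Against AK the log2 fold change was 0.10 ± 0.31 (adjusted p = 0.847), and AK vs. NS gave 0.17 ± 0.16 (adjusted p = 0.531). With cSCC 20 and 21 left out Tgfa was at 0.75 against NS (adjusted p = 0.118) and 0.61 against AK (adjusted p = 0.115). Errfi1 had 59.97 to 182 CPM in NS, 77.3 to 167 CPM in AK, and 75.7, 136, 109 and 51.6 CPM in cSCC 18 to 21. The groups overlapped, with log2 fold changes of -0.21 ± 0.32 in cSCC vs. NS (adjusted p = 0.683), -0.24 ± 0.28 in cSCC vs. AK (adjusted p = 0.556) and 0.07 ± 0.20 in AK vs. NS (adjusted p = 0.852). With cSCC 20 and 21 left out it was at -0.046 (adjusted p = 0.949) and -0.083 (adjusted p = 0.892).

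Epgn, Ereg, Areg and Btc lie side by side on chromosome 5 (GRCm38, GENCODE M21), within 376 kb that hold no other protein-coding gene. Epgn (91027464 to 91035215), Ereg (91074622 to 91093646) and Areg (91139599 to 91148432) are on the plus strand, and Btc (91357261 to 91402994) is on the minus strand, 209 kb past Areg. In cSCC vs. NS these neighbours had log2 fold changes of 0.79, -0.59, 2.39 and -3.58 in that order. Ereg overlaps the antisense gene Gm19610. Of the members elsewhere, Egfr overlaps Egfros, Errfi1 overlaps 1700045H11Rik and Tgfa overlaps Gm43917, each on the opposite strand, as Erbb2 does Mien1. The promoters of Areg and Btc are printed because these neighbours went in opposite directions in cSCC. The sequences are from RefSeq (build GRCm38.p6) and hold the 250 bases before each gene's start, 5′ to 3′ on the gene's own strand, at chr5:91139349-91139598 (plus strand) for Areg and chr5:91402995-91403244 (minus strand) for Btc. Both windows lie outside the gene's transcripts in GENCODE. The Errfi1 stretch (chr4:150854999-150855046, plus strand) lies before the second of its RefSeq starts, in an intron of the GENCODE gene, and is shown because it holds the same word as Areg. Capitals mark TGACGTCA, the letters of a cAMP response element.
Areg: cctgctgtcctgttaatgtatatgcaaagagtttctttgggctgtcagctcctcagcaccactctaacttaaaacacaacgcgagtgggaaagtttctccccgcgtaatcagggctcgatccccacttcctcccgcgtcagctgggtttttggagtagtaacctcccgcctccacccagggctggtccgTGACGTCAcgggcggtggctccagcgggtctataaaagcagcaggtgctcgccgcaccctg
Btc: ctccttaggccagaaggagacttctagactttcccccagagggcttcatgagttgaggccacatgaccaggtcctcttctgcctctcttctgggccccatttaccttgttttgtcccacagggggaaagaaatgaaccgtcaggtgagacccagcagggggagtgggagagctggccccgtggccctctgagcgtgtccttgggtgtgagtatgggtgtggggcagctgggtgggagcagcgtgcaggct
Errfi1: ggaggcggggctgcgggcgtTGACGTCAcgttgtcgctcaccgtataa

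Promoter sequences, each 250 bases before to 50 bases after a start, were found for 7 of 10 members, with 8 starts. Entries were used for Areg, Btc, Egfr, Epgn, Erbb2, Errfi1 and Tgfa. The first bases after both Errfi1 starts and after the Tgfa start were not found in a GENCODE transcript. Those of the other starts were. On either strand (the word reads the same on both), TGACGTCA was found in 2 of these 8 promoters, those of Areg, where it begins 61 bases before the start, and Errfi1, where it begins 51 bases before. It was present in 1.79% of all 32851 promoters of the table. TGANTCA, the letters of an AP-1 site, was found in 0 of 8 member promoters and in 7.81% of all promoters. GC content was 59.3% for Areg, 60.3% for Btc and 47.3% for Epgn, against a median of 52.7% over all promoters. A match of letters is a description and not a site in use.

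The make-up of the ligand transcripts had Epgn as its largest part in all 20 samples, and the mean share of Btc was lowest in cSCC. Shares were taken from CPM per kb of exon summed over the 6 ligands, and are given as a description. Epgn held 53.6% ± 7.41 (mean ± SD) in the 8 NS samples, 56.8% ± 3.36 in the 8 AK samples and 53.5% ± 19.996 in the 4 cSCC samples. Btc held 9.07% ± 7.11 in NS, 3.05% ± 1.39 in AK and 0.716% ± 0.830 in cSCC. Its share was 0.123% to 1.93% in cSCC and 1.56% to 21.9% in NS. Hbegf held 11.4% ± 4.71 in NS, 12.2% ± 3.50 in AK and 22.5% ± 7.29 in cSCC. Ereg held 15.5% ± 2.97 in NS, 18.3% ± 5.18 in AK and 5.29% ± 3.38 in cSCC, and its cSCC shares (1.53% to 9.62%) lay below all NS and AK shares. Areg held 5.43% ± 2.67 in NS, 5.44% ± 1.06 in AK and 14.7% ± 11.3 in cSCC, where cSCC 19 and 20 were high and cSCC 18 and 21 were within the NS range. Tgfa held 4.98% ± 2.74 in NS, 4.25% ± 1.13 in AK and 3.31% ± 1.01 in cSCC.

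**Figure D3:**
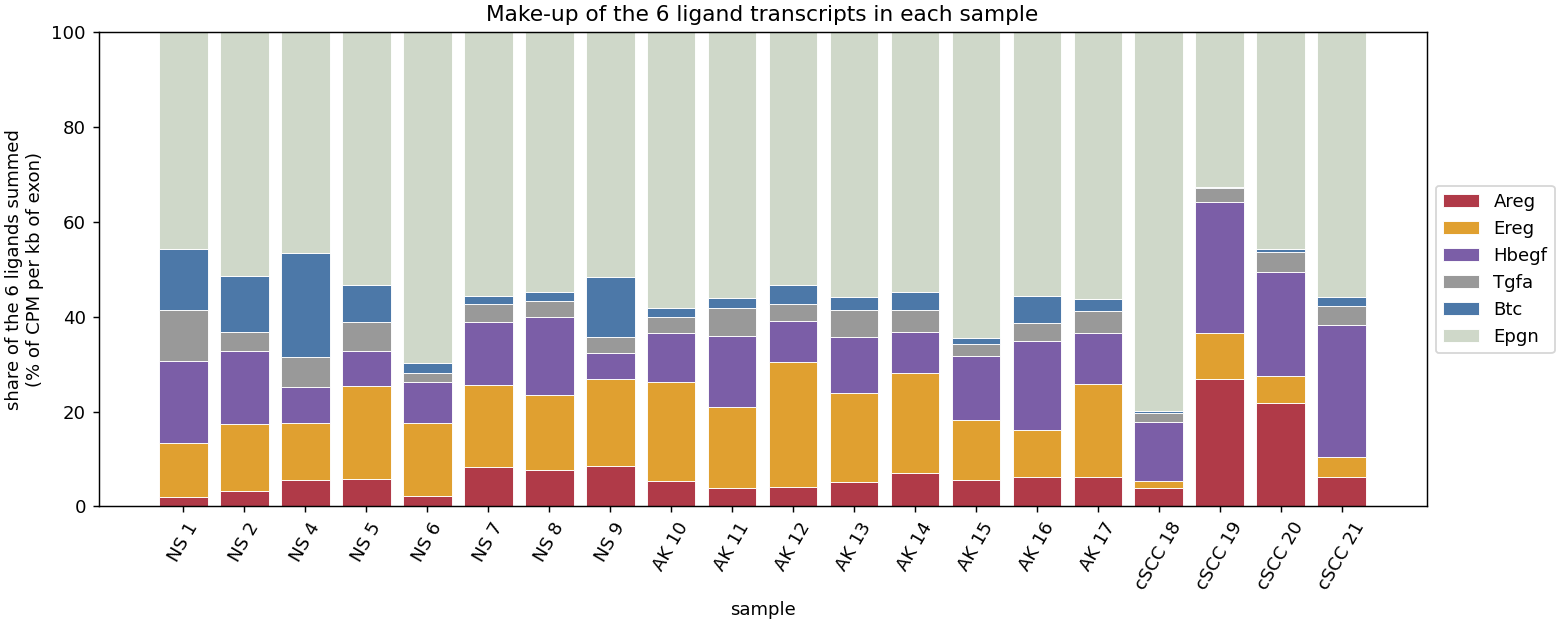
Share of each ligand (y axis, percent of the CPM per kb of exon summed over 6 ligands) in each sample (x axis). The Btc share is 0.123% to 1.93% in the 4 cSCC bars, and Areg and Hbegf together take the most in cSCC 19.

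The receptors summed (Egfr, Erbb2 and Erbb3, in CPM per kb of exon) had 23.4 to 33.5 in NS, 20.8 to 30.5 in AK, and 14.9, 9.71, 6.58 and 5.09 in cSCC 18 to 21. The 6 ligands summed had 90.2 to 234 in NS, 121 to 301 in AK, and 397, 472, 129 and 72.2 in cSCC 18 to 21. The cSCC samples therefore lay on both sides of the NS range for ligands but on 1 side for receptors. The ratio of both sums, which does not depend on the scaling between libraries, had a median of 5.57 in NS (3.48 to 8.10), 6.90 in AK (4.98 to 13.1) and 23.2 in cSCC (14.2 to 48.6). It was 26.7 and 48.6 in cSCC 18 and 19, and 19.7 and 14.2 in cSCC 20 and 21, so the lowest cSCC sample was above the highest AK sample, AK 15.

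**Figure D4:**
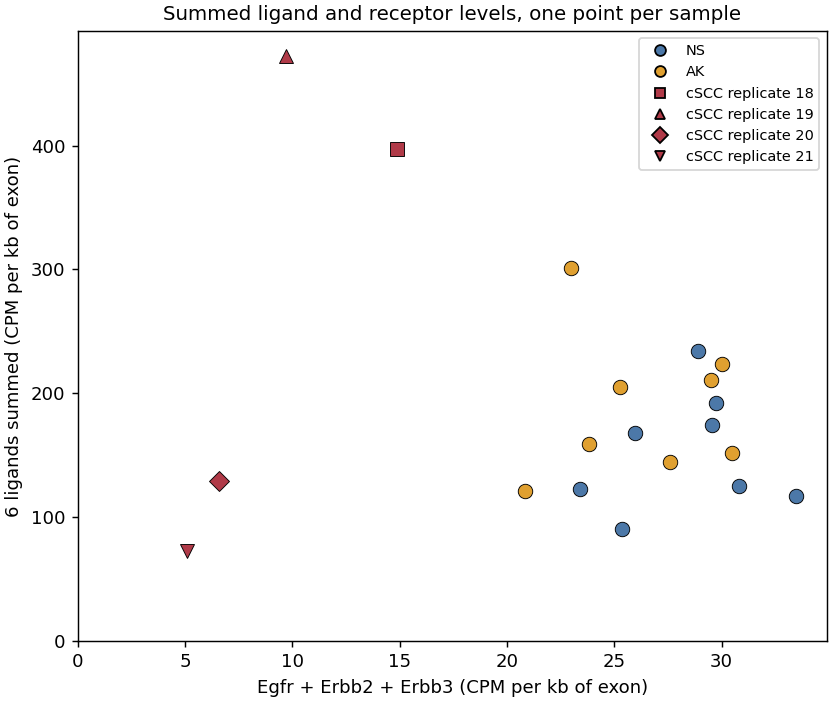
Summed ligands (y axis, 6 genes) against summed receptors (x axis, 3 genes), both in CPM per kb of exon, 1 point per sample. The 4 cSCC samples lie at 5.09 to 14.9 on the receptor axis, left of all NS and AK samples, and at 72.2 to 472 on the ligand axis.

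Other genes of the pathway were counted on a list of 40, of which 33 were tested in AK vs. NS, 37 in cSCC vs. NS and 34 in cSCC vs. AK. Shares that passed were 3.03%, 21.6% and 17.6%, near the 4.64%, 19.3% and 24.4% of all genes. The median log2 fold change in cSCC vs. NS was 0.16 over the list, -0.40 over the members and 0.14 over all genes tested. In cSCC vs. AK these medians were 0.37, -0.62 and 0.17, and in AK vs. NS they were 0.01, 0.12 and -0.04.

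Among the other receptor and ligands (Erbb4, Egf, Nrg1, Nrg2, Nrg4), 3 of 5 genes were tested in cSCC vs. NS and Nrg1 rose. Nrg1 encodes neuregulin 1, a ligand of ERBB3 and ERBB4. It had 0.450 to 4.35 CPM in NS and 0 to 8.47 CPM in AK. NS 5 was below the 0.675 CPM that stand for 3 counts in that library. NS 4 (1.02 CPM) and NS 8 (0.913 CPM) were at that floor, so the size of the Nrg1 fold change is uncertain. Nrg1 was not tested in AK vs. NS. The cSCC samples had 17.4, 61.5, 13.7 and 9.43 CPM (cSCC 18 to 21), with TMM scaling all above every NS and AK sample. The TMM factors of cSCC 18 (0.509) and cSCC 21 (0.852) raised their values. That of AK 15 (1.05) lowered the highest AK value, so the separation from AK depended on the scaling. The log2 fold change of Nrg1 was 3.71 ± 0.58 against NS (13.1-fold higher, adjusted p = 0.00167) and 3.32 ± 0.80 against AK (10.02-fold higher, adjusted p = 0.0102). Without TMM factors it was 3.56 (adjusted p = 0.00237) and 3.19 (adjusted p = 0.0176). Without cSCC 20 and 21 it was 4.33 (adjusted p = 0.00147) and 3.945 (adjusted p = 0.0102), and without cSCC 19 it was 2.78 (adjusted p = 0.00949) and 2.39 (adjusted p = 0.0592). Nrg1 was thus above every NS sample in the same 4 samples in which its receptor Erbb3 was below every NS sample.

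Of the 5 genes for ligand release (Adam10, Adam17, Rhbdf1, Rhbdf2, Timp3), Adam10 passed in AK vs. NS and none passed in a cSCC comparison in edgeR. At an unadjusted p-value under 0.05 in edgeR there were 1 of 5 in cSCC vs. NS and 2 of 5 in cSCC vs. AK. Of all genes, 4116 of 12097 and 4619 of 12032 reached this. DESeq2 called 0 and 2 of the 5. Limma voom called 0 and 0 of them, against 1308 of 12097 and 1270 of 12032 genes. Adam10, a membrane protease that cuts ligand precursors, had 177 to 298 CPM in NS, 267 to 475 CPM in AK, and 299, 223, 375 and 89.6 CPM in cSCC 18 to 21. It lay above every NS sample in 7 of 8 AK samples, and rose by 0.60 ± 0.15 on the log2 scale (1.51-fold, adjusted p = 0.0288). This fold change was close to the limit of 1.5, and the call was lost in 5 of the alternative fits and without NS 1, NS 2, NS 4, AK 10, AK 12 or AK 13.

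Of the 5 genes for receptor turnover and inhibition (Lrig1, Lrig2, Lrig3, Cbl, Cblb), Lrig3 fell in both cSCC comparisons. Lrig3 encodes a membrane protein with leucine-rich repeats, related to the receptor inhibitor LRIG1. It had 10.7 to 61.1 CPM in NS, 12.6 to 22.8 CPM in AK, and 4.86, 0.879, 13.7 and 0.662 CPM in cSCC 18 to 21, with cSCC 20 alone inside the NS range. The value of cSCC 19 was below the 1.32 CPM that stand for 3 counts in that library, and cSCC 21 was little above its 0.496 CPM. The log2 fold change of Lrig3 was -2.82 ± 0.76 against NS (adjusted p = 0.0199) and -2.02 ± 0.65 against AK (adjusted p = 0.0356). Without cSCC 20 and 21 it was -3.49 (adjusted p = 0.0155) and -2.72 (adjusted p = 0.00795), and limma voom gave -3.40 against NS (adjusted p = 0.0592).

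Of the 13 adaptors and Ras-MAPK genes, 2 rose and 1 fell in cSCC vs. NS, a share of 23.1% near the 19.3% of all genes. Shc1, an adaptor that docks on the active receptors, had 11.9 to 20.9 CPM in NS, 16.04 to 29.96 CPM in AK and 24.3, 45.7, 26.2 and 47.1 CPM in cSCC 18 to 21. It rose by 1.14 ± 0.27 on the log2 scale against NS (adjusted p = 0.0117) and by 0.85 ± 0.29 against AK (adjusted p = 0.0417). Map2k1, the kinase MEK1, had 42.7 to 71.6 CPM in NS and 70.2, 104, 121 and 78.6 CPM in cSCC 18 to 21. It rose by 0.79 ± 0.23 against NS (adjusted p = 0.0267) and gave 0.48 ± 0.23 against AK (adjusted p = 0.144). Gab1, a docking protein of the same branch, had 40.3 to 103 CPM in NS, 77.9 to 119 CPM in AK and 47.2, 11.4, 25.03 and 41.2 CPM in cSCC 18 to 21. It fell by 1.26 ± 0.37 against NS (adjusted p = 0.0295) and by 1.57 ± 0.32 against AK (adjusted p = 0.00522), where the groups did not overlap. Without cSCC 20 and 21, Shc1 was at 1.08 against NS (adjusted p = 0.0429) and 0.76 against AK (adjusted p = 0.143), Map2k1 at 0.67 against NS (adjusted p = 0.105), and Gab1 at -1.42 against NS (adjusted p = 0.0758) and -1.77 against AK (adjusted p = 0.0124). Without TMM factors the calls of Shc1 (adjusted p = 0.103) and Map2k1 (0.246) against NS and of Shc1 against AK (0.215) were lost. Shc1 against AK was also lost with a looser filter on low counts (0.13) and with limma voom (0.146).

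Of 7 ERK feedback genes tested in cSCC vs. NS, 1 passed (14.3%), Spry4, which encodes a Sprouty protein, an inhibitor of receptor signalling to Ras. It had 0, 9.23, 3.41 and 18.9 CPM in cSCC 18 to 21 and at most 3.52 CPM in NS, with a log2 fold change of 2.97 ± 0.93 (adjusted p = 0.039). The value of cSCC 20 was at the floor of 3 counts, and NS 4, 6, 7 and 8 were below theirs. The size of the Spry4 fold change is therefore uncertain. The call was lost without cSCC 20 and 21 (2.15, adjusted p = 0.261), with limma voom (0.171), without TMM factors (0.0755) and with a looser filter on low counts (0.0582). Of 4 transcription targets (Etv4, Etv5, Phlda1, Ier3), 2 rose in cSCC vs. NS, where 11.7% of all genes did. Ier3, an immediate early gene, had 42.1 to 79.9 CPM in NS, 45.4 to 116 CPM in AK and 174, 455, 122 and 86.0 CPM in cSCC 18 to 21. With TMM scaling all 4 lay above every NS sample. The TMM factors of cSCC 18 (0.509) and cSCC 21 (0.852) raised their values, and that of NS 1 (1.22) lowered the highest NS value. The separation from NS thus depended on the scaling. Ier3 rose by 1.88 ± 0.35 against NS (3.67-fold, adjusted p = 0.00414) and by 1.57 ± 0.36 against AK (2.98-fold, adjusted p = 0.00859). It stood at 2.45 (adjusted p = 0.00105) and 2.14 (adjusted p = 0.0022) without cSCC 20 and 21. Without TMM factors it was at 1.69 (adjusted p = 0.0159) and 1.44 (adjusted p = 0.0313). Phlda1, which encodes a pleckstrin homology domain protein, had 3.05 to 12.5 CPM in NS, 3.07 to 16.8 CPM in AK and 7.64, 34.7, 5.69 and 78.9 CPM in cSCC 18 to 21. It rose by 2.64 ± 0.57 against NS (adjusted p = 0.00748) and by 2.20 ± 0.63 against AK (adjusted p = 0.0225). Its high samples were cSCC 19 and 21, and without cSCC 21 it was at 1.63 against NS (adjusted p = 0.0552) and 1.06 against AK (adjusted p = 0.258). With both cSCC 20 and 21 left out it was at 1.998 against NS (adjusted p = 0.0326) and 1.51 against AK (adjusted p = 0.138), and the call against AK was also lost with limma voom (0.257) and without TMM factors (0.0509).

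Several of these pathway calls depended on single libraries. Against NS, Spry4 was lost without NS 2, 4, 5, 6, 7, 8 or 9 or cSCC 19 or 21 (adjusted p = 0.0509 to 0.21), Gab1 without NS 4, 5 or 7 or cSCC 19 or 20 (0.0514 to 0.0622), Map2k1 without cSCC 19 or 20 (0.066 and 0.0785) and Lrig3 without cSCC 19 (0.0505). Against AK, Shc1 was lost without AK 10 to 15, AK 17, cSCC 19 or cSCC 21 (0.0577 to 0.2), Lrig3 without AK 10 to 13, AK 15, AK 17, cSCC 19 or cSCC 21 (0.0526 to 0.082), and Phlda1 without AK 14 (0.0511). Nrg1 and Ier3 against NS and Gab1 against AK were kept in each of these fits.

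**Figure D5:**
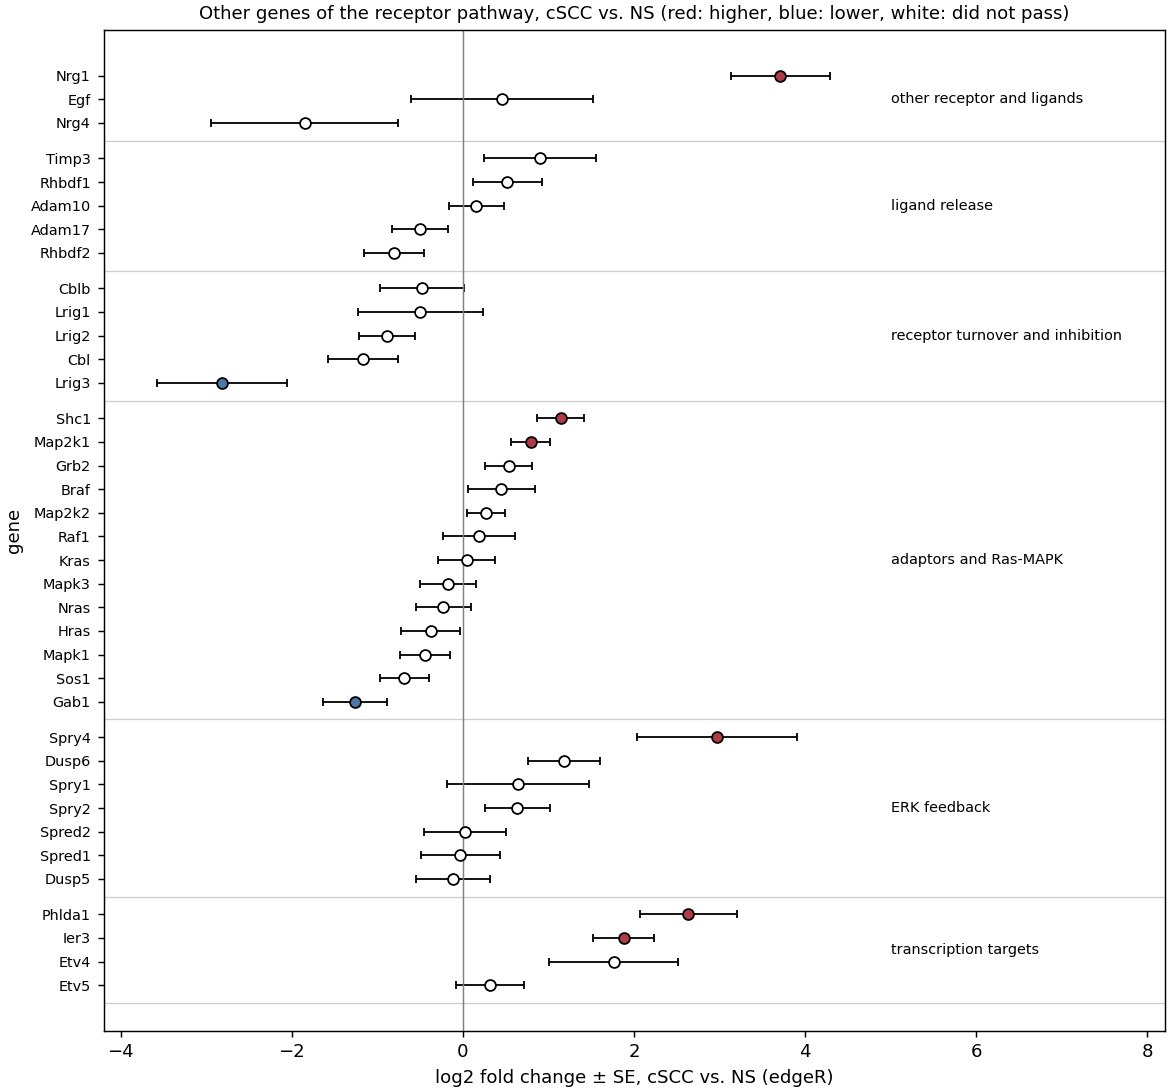
Log2 fold change (x axis, ± SE, edgeR) in cSCC vs. NS of the 37 pathway genes tested (y axis), grouped by role. Red points passed and were higher, blue points passed and were lower, and white points did not pass. Nrg1 is the furthest to the right (3.71) and Lrig3 the furthest to the left (-2.82).

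For each member the gene with the most similar pattern was taken by Spearman's rho of log2(CPM + 1) over the 20 samples, among 12847 genes. The samples share groups and library depth, so these values are a description. For Egfr it was Erbb3 (rho = 0.893, and 0.794 over the 16 NS and AK samples), and for Erbb3 it was Arl4a, a small GTPase (0.929 and 0.868). Erbb2 was closest to Lce1a2, a late cornified envelope gene (0.929 and 0.888), which keratinocytes express late in differentiation. Among ligands, Areg was closest to Nt5dc2 (0.848 and 0.788), Ereg to Gpt2 (0.788 and 0.706), Hbegf to Pdlim1 (0.899 and 0.874), Tgfa to Inadl (0.755 and 0.659), Btc to Hbp1 (0.920 and 0.850) and Epgn to Phf5a (0.850 and 0.762). Errfi1 was closest to Tbc1d10b (0.731 and 0.647). Erbb3 was the nearest gene of Egfr, while Egfr ranked 3 for Erbb3. No other member was the nearest gene of a member.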

How the data were processed

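RNA-seq of 20 skin tissues was analysed from the raw counts per gene symbol that the authors deposited, without normalization. Per the paper, the authors used Trimmomatic for trimming, HISAT2 for alignment to the GRCm38 genome and StringTie for quantification. The submitters' processing notes name Trimmomatic 0.36, HISAT2 2.0.5, featureCounts 1.5.2 and other builds. Counting by strand is not given in the sources used here, so genes overlapping on opposite strands have uncertain counts.

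Groups came from the labels. CPM used TMM factors over 20 samples (edgeR 4.0.16, R 4.3.3). Each comparison used its own samples, filterByExpr and edgeR's quasi-likelihood test with Benjamini-Hochberg adjustment over all genes tested. The SE was taken as the absolute log2 fold change over the root of the F statistic. P-values measure the spread between tissues, some of which share a mouse. All 62 pairs of libraries within groups differed beyond sampling noise (chi-square of at least 11.3 per degree of freedom). A level of 3 counts was taken as the floor, which covers counting error only. Exon lengths are the union of GENCODE M21 exons.

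Alternatives were DESeq2 1.42.0, limma 3.58.1 voom with sample quality weights, upper quartile factors, library size alone, other filters on low counts, no fold change limit, all 20 samples in 1 fit, and samples left out. For pathway genes they were added after the data were examined. All members, the pathway genes called and the nearest gene of each member were named. The members and lists were chosen with earlier results of these data known. Protein sequences were not used here.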

Additional observations from a re-analysis of the deposited data

Results flagged for a closer look

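Among the 30 combinations of a member and a group, 2 samples stood apart from the rest of their group by Dixon's test, which flags about 1 in 20 groups by chance. Ereg had 188 CPM in cSCC 19, where the next highest cSCC sample had 30.7 CPM, a gap of 0.897 of the group's range. Areg, Hbegf, Tgfa, Errfi1 and Erbb2 were also highest in this sample among the cSCC samples, although their gaps did not pass. Btc had 52.7 CPM in AK 16, where the next highest AK sample had 28.3 CPM, a gap of 0.591 of the range.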

How the results depend on the processing

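No paired analysis was possible because no label says which mouse a tissue came from and the groups share no replicate number. In AK vs. NS, 542 genes were called, 1049 by DESeq2, 1043 by limma voom and 9 in 1 fit of all 20 samples. Pathway genes called were 1, then 2 by DESeq2 and 0 with upper quartile factors, library size alone, at least 10 counts in every sample, limma voom or all 20 samples, and members were 1, then 0 with all 20 samples. In cSCC vs. NS, 2340 of 12097 genes were called, 1526 of 6790 with at least 10 counts in every sample (which leaves fewer genes to test), 1308 by limma voom and 1558 without cSCC 20 and 21, and 8 of 37 pathway genes became 4 of 23 with at least 10 counts in every sample. In cSCC vs. AK, 2935 of 12032 genes became 1731 of 5977, 1270 and 1584 under the same 3 settings, 6 of 10 members became 3 of 7 with at least 10 counts in every sample and 2 of 10 by limma voom, and 6 pathway genes became 12 by DESeq2 and 14 in 1 fit of all 20 samples. With each sample left out in turn, AK vs. NS gave 164 to 920 genes, 0 to 3 pathway genes and 0 to 2 members; cSCC vs. NS gave 1695 to 3181 genes, 5 to 10 pathway genes and 4 to 6 members; cSCC vs. AK gave 1787 to 3994 genes, 4 to 14 pathway genes and 4 to 6 members. The causes were not tested.

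Of 919 log2 fold changes of the members and the pathway genes called that were recomputed, 782 kept their sign and call, 101 lost and 5 gained the call, and 31 changed sign, all for members that had not passed. Egfr in AK vs. NS (0.01) was -0.058 with upper quartile factors, -0.092 with library size alone, -0.086 with at least 10 counts in every sample, -0.0017 by DESeq2 and -0.047 by limma voom. Erbb3 there (0.07) was -0.037, -0.027 and -0.041 with library size alone, at least 10 counts in every sample and limma voom, and Errfi1 (0.07) was -0.024 and -0.0104 with the first 2. Ereg in cSCC vs. NS was 0.14 without cSCC 20 and 21. Tgfa was -0.028 in cSCC vs. NS with library size alone, and in cSCC vs. AK -0.089 with library size alone, -0.060 with at least 1 count in any sample and -0.012 in 1 fit of all 20 samples. With each sample left out in turn, Egfr (-0.046 to 0.058), Erbb3 (-0.027 to 0.14) and Errfi1 (-0.018 to 0.21) in AK vs. NS, Tgfa in cSCC vs. NS (-0.23 to 0.51) and cSCC vs. AK (-0.37 to 0.29) and Epgn in cSCC vs. AK (-0.33 to 0.72) crossed 0.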
